A study of Mus musculus with 2 samples.

Results

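The genes described are 45 mouse genes of mismatch repair, base excision repair, nucleotide excision repair and the Fanconi crosslink pathway, together with a direct reversal enzyme and a pair of cytidine deaminases. A gene was included when a non-control probe of the array carried its name, which gave 63 of the 55681 non-control probes. The 45 genes stand among 22208 genes of the array that could be named from a RefSeq gene table. They comprise 6 mismatch repair genes, 10 base excision glycosylases, 5 genes acting after the glycosylases, 11 nucleotide excision genes, 10 Fanconi genes, Mgmt, and the deaminases Apobec1 and Apobec3.

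Total RNA of P5424, a mouse T-cell line, was hybridised to 2 one-colour Agilent arrays with 60-base probes. Both samples are untreated, carry the genotype Rag2 and P53 knockout (gene symbol Trp53), and were kept in RPMI1640 medium, to which 0.1 mM of 2-mercaptoethanol and fetal bovine serum at 10% were added. The 2 samples form 1 group, labelled replicate 1 and replicate 2, and the labels do not say whether they are separate cultures, so their spread may be technical. With no second condition, no test between conditions was possible, and 1 line describes that line alone.

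Cells remove most DNA damage by cutting out the damaged stretch and copying the intact strand. Mismatch repair removes errors left by replication. Base excision repair starts with a glycosylase that frees a single altered base, nucleotide excision repair cuts out bulky lesions such as those made by ultraviolet light, and the Fanconi pathway unhooks crosslinks between the strands. Dividing lymphoid cells use several of these proteins also outside repair: uracil glycosylase and mismatch repair proteins process deaminated cytosines in B-cell antibody genes.

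A probe was called detected when the extraction software marked it as well above background on both arrays, and a gene when any of its probes was. Signals are background-subtracted intensity units. Log2 values are relative to the 75th percentile of the array, which was 324 units on replicate 1 and 299 units on replicate 2, and a gene is given by its detected probe with the highest mean. Probes bind their targets unequally, so signals of different probes do not rank genes or transcripts. All 11 listed T-lineage markers were detected, among them Cd3e, Cd4 and Cd8a. Of the markers of other cell types, 1 of 5 B-cell genes (Cd79a), 3 of 6 myeloid genes (Csf1r, Cd14 and Itgam), 1 of 4 erythroid genes (Klf1) and 2 of 6 stromal and epithelial genes (Pdgfrb and Pecam1) were detected. Itgam (6292 and 6868 units on replicates 1 and 2), Pdgfrb (1573 and 1557 units) and Pecam1 (443 and 447 units) lay above the 75th percentile. Cd79a, Csf1r, Cd14 and Klf1 lay below it, at 42.5 to 133 units. Rag2 gave 2132 and 2086 units and Trp53 gave 746 and 996 units on replicates 1 and 2. Which stretch of either gene is missing is not stated, so these signals do not check the genotype.

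Of the 45 repair genes, 44 were detected on both arrays, or 97.8%, against 51.7% of all named genes. The mismatch genes were detected in 6 of 6 cases, the glycosylases in 10 of 10, the later base excision genes in 5 of 5, the nucleotide excision genes in 11 of 11, the Fanconi genes in 10 of 10 and the deaminases in 2 of 2. Each of the 4 excision, mismatch and crosslink pathways was thus detected in full. Mgmt was the exception, not well above background on either array, as were 45.7% of all named genes. The number of probes per gene affects the chance of detection, so genes were also set beside those with equally many probes. Of the repair genes with 1 probe, 29 of 30 were detected, against 45.1% of named genes with 1 probe. With 2 probes, 12 of 12 repair genes were detected, against 64.4% of named genes. With 3 or more, 3 of 3 were detected, against 72.1%. Among protein-coding named genes the share was 54.1%. Counted by probe, 57 of the 63 repair probes were detected, or 90.5%, against 50.3% of the probes of named genes. Over all non-control probes, which include those without a named gene, the share was 40.1%.

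**Figure D1:**
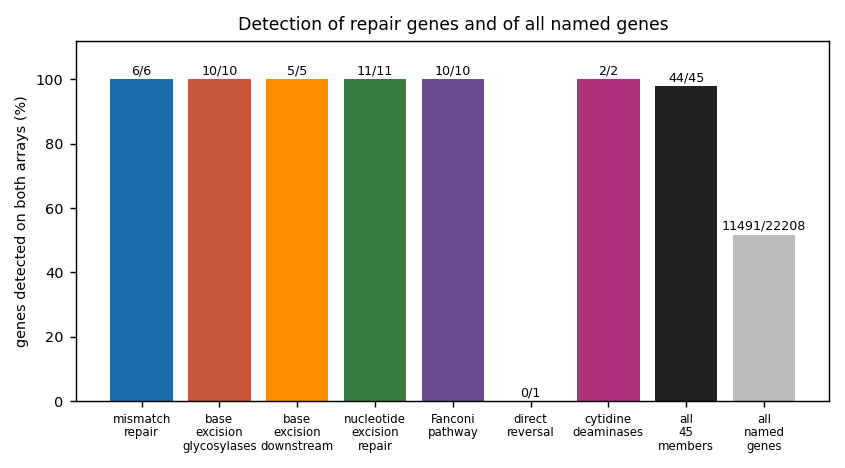
Share of genes detected on both arrays in %, by repair group, with detected genes over genes in the group above each bar. Every group except direct reversal, which holds Mgmt alone, reached its full count, and 51.7% of all named genes were detected.

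In 41 of the 45 repair genes, or 91.1%, the mean lay above the 75th percentile of the array, against 39.0% of all named genes. Among detected genes alone the shares were closer, at 41 of 44 repair genes, or 93.2%, against 75.3% of detected named genes. The detected repair genes below it were the glycosylase Neil2, the nuclease Ercc5 and the transcription-coupled repair gene Ercc6. Averaging all detected probes of a gene in place of taking the one with the highest mean left 38 above the percentile.

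**Figure D2:**
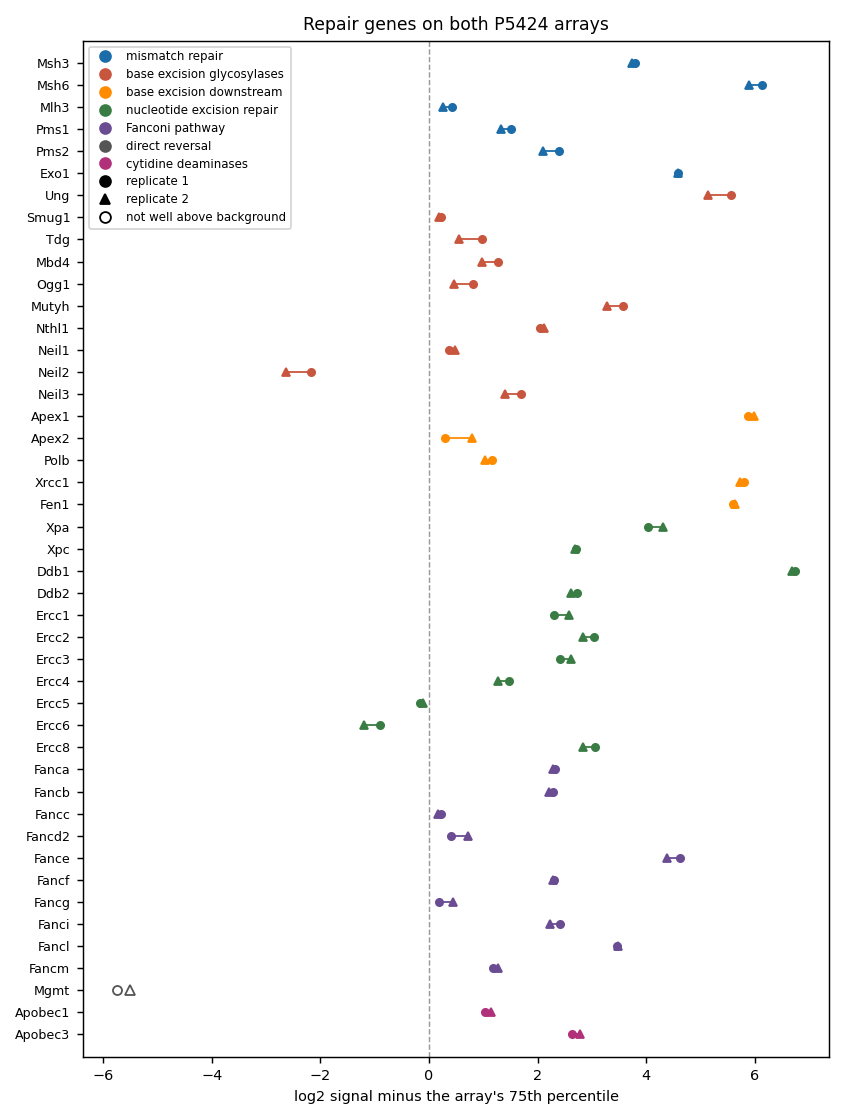
Log2 signal of each of the 45 repair genes minus the 75th percentile of the array, with a circle for replicate 1 and a triangle for replicate 2, coloured by pathway. Open symbols mark Mgmt, which was not well above background, and the dashed line is the 75th percentile. Horizontal positions of different genes come from different probes and do not rank the genes.

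Mgmt encodes the methyltransferase that takes alkyl groups from guanine directly, without excision. Its single probe, at chr7:144319790-144319849 on mm9, gave 6.04 units on replicate 1 and 6.54 units on replicate 2. Both are values that the software substituted for a signal near background. Negative control spots had medians of 6.55 and 7.50 units on replicates 1 and 2, and the dimmest probe marked well above background had 28.9 and 31.1 units. The Mgmt probe lay below both marks on each array, so only an upper bound is known for it. In human tumours MGMT is known to be silenced by methylation of CpG sites in its promoter, so the promoter window of mouse Mgmt is shown, with every CpG in capitals. It spans 250 bases before to 50 after the RefSeq start site at chr7:136894336-136894635, plus strand, GRCm38.p6.
Mgmt promoter: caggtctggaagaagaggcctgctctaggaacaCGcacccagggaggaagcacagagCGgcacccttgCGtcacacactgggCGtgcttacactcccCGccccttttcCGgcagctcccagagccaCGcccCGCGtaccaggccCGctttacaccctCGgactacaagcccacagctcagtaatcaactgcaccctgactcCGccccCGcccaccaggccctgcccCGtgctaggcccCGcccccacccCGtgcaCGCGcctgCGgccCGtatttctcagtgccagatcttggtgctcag
This window holds 20 CpG dinucleotides, and a second Mgmt window, at chr7:136912848-136913147, holds 3. Methylation was not measured here.

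In mismatch repair, Msh6 and Msh3 are the alternative partners that recognise mispaired bases and small loops, or larger loops. Msh6 was read by 1 probe with 22719 and 17656 units on replicates 1 and 2, a log2 value of 6.01 ± 0.17 (SD, n = 2). Msh3 had 3 probes, all detected. The one with the highest mean gave 4508 and 4008 units, or 3.77 ± 0.04 (SD, n = 2), and the other probes, which begin at bases 983 and 2571 of the transcript, gave 185 and 216 units and 150 and 216 units. The array thus placed Msh3 on both sides of the percentile, depending on the probe. The first of the low-signal Msh3 probes spans chr13:93115018-93116708 on mm9, 1691 bases for a probe of 60, so it lies across a splice junction, and the second lies at chr13:93019783-93019842. Both are on the minus strand, and each reads through all its bases without a stop in at least 1 frame. They are shown in full, with nothing marked, because they carry the lower Msh3 readings.
Msh3 probe at base 983: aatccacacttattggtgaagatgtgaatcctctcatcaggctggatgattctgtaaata
Msh3 probe at base 2571: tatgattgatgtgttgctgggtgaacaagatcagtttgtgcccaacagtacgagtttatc

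The other mismatch genes act after recognition. Pms2, the nuclease partner of the main MutL complex, gave 1707 and 1277 units by one probe, or 2.25 ± 0.21 (SD, n = 2), and 130 and 98.3 units by its other. Pms1, a further MutL partner, gave 923 and 751 units. Mlh3, whose complex is best known from meiotic crossovers, gave 437 and 357 units. Exo1, the exonuclease that removes the strand with the error, gave 7765 and 7210 units. Relative to the percentile these genes stood at 1.42 ± 0.13 for Pms1, 0.34 ± 0.12 for Mlh3 and 4.59 ± 0.01 for Exo1 (SD, n = 2).

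Base excision glycosylases each recognise a class of altered base. Ung, which removes uracil from DNA, gave 15359 and 10478 units on replicates 1 and 2, or 5.35 ± 0.31 (SD, n = 2). Its only probe ends in a long run of alternating g and t. Whether other transcripts with such a run add to the Ung signal was not tested. Smug1, a second uracil glycosylase, was read at 379 and 339 units by one probe, or 0.21 ± 0.03 (SD, n = 2), while its other probe had 11.8 and 10.1 units and was not well above background. Tdg and Mbd4 remove thymine paired with guanine. Tdg gave 635 and 438 units, 423 and 333 units, and 143 and 130 units by its 3 probes, and Mbd4 gave 787 and 587 units. All of these uracil and thymine glycosylases were therefore detected, although the Smug1 call rests on 1 of 2 probes and the Ung call on the repeat-bearing probe.

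Oxidised bases are handled by other glycosylases. Ogg1, which removes oxidised guanine, gave 568 and 413 units. Mutyh, which removes adenine placed opposite it, gave 3860 and 2905 units by one probe and 1481 and 1275 units by the other. Nthl1, which acts on oxidised pyrimidines, gave 1335 and 1302 units. The Neil genes encode a further family for oxidised bases: Neil1 gave 417 and 415 units and, by a second probe, 155 and 220 units, and Neil3 gave 1043 and 790 units. Neil2 gave 71.7 and 48.3 units, or -2.40 ± 0.32 (SD, n = 2), and its reading on replicate 2 lay below the brightest negative control spot there, at 101 units. That spot stood apart, since the next brightest had 17.6 units. The Neil2, Tdg and Mutyh values were singled out after they were seen.

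The steps after base removal were read by 1 probe per gene. Apex1, the main endonuclease that nicks the strand at the site without a base, gave 19085 and 18830 units, or 5.93 ± 0.07 (SD, n = 2). Its relative Apex2 gave 400 and 516 units, or 0.55 ± 0.34 (SD, n = 2). Polb, the polymerase that fills the gap, gave 727 and 612 units. Xrcc1, the scaffold for repair of single-strand breaks, gave 18025 and 15789 units, and the flap endonuclease Fen1, which also acts in replication, gave 15640 and 14875 units. All 5 lay above the 75th percentile on both arrays.

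In nucleotide excision repair, Xpc and the Ddb1 and Ddb2 pair find the lesion. Xpc gave 2106 and 1930 units, or 2.70 ± 0.01 (SD, n = 2), and Ddb2 gave 2147 and 1836 units, or 2.67 ± 0.08. In human cells XPC and DDB2 are known p53 target genes. Both were detected in these cells, labelled as lacking P53. No cells with P53 were measured, so whether these mouse genes depend on P53 was not tested. Ddb1, which also serves as an adaptor of ubiquitin ligases, gave 34872 and 30765 units. Xpa, which verifies the lesion, gave 5308 and 5949 units by one probe, or 4.17 ± 0.20 (SD, n = 2), and 1452 and 1332 units by the other.

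The helicases Ercc2 and Ercc3 open the helix, and gave 2652 and 2127 units and 1718 and 1829 units. Ercc1 and Ercc4, the nuclease cutting on one side of the lesion and also used on crosslinks, gave 1597 and 1782 units and 896 and 720 units. Ercc5, the nuclease cutting on the other side, gave 288 and 275 units, or -0.14 ± 0.04 (SD, n = 2), by its probe at base 3288. A second Ercc5 probe, designed on a cDNA clone, gave 31.9 and 31.1 units and was not well above background. This call was borderline, since the dimmest probes marked well above background had 28.9 and 31.1 units on replicates 1 and 2. The software also marked the signal of this second probe as positive and significant on both arrays. The detected probe is at chr1:44237384-44237443 and the other at chr1:44220513-44220572, both on mm9, plus strand. The detected probe is shown, with nothing marked, because the Ercc5 call rests on it, and it has at least 1 frame without a stop.
Ercc5 probe at base 3288: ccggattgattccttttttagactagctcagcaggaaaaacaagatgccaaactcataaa

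Ercc6 and Ercc8 start repair where an RNA polymerase has stalled. Ercc6 gave 174 and 130 units, or -1.05 ± 0.22 (SD, n = 2). Ercc8 gave 2703 and 2136 units by one probe and 335 and 357 units by another, while a further probe had 10.6 and 8.25 units and was not well above background. The 8.25 units on replicate 2 are a value that the software substituted. Among the nucleotide excision genes, Ercc5 and Ercc6 were those whose mean lay below the percentile.

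Most Fanconi genes encode the core complex, which ubiquitinates the Fancd2 and Fanci clamp at a crosslink. Fanca gave 1618 and 1457 units, or 2.30 ± 0.02 (SD, n = 2), by one probe, and its other probe had 15.7 and 9.37 units and was not well above background. Fancb gave 1581 and 1387 units, or 2.25 ± 0.05. The core subunit Fancc gave 379 and 337 units by one probe and 197 and 128 units by the other. Fance, which links the core to the clamp, gave 7946 and 6258 units by one probe and 681 and 773 units by the other. The adaptor Fancf gave 1597 and 1452 units and the core subunit Fancg gave 370 and 406 units. Fancl, the ubiquitin ligase subunit, gave 3591 and 3320 units by one probe and 1523 and 1331 units by the other. Fancm, the translocase that brings the core to DNA, gave 734 and 722 units. All core complex genes listed were detected, and both clamp genes too: Fancd2 gave 428 and 492 units, and Fanci gave 1717 and 1402 units by one probe, with 7.23 and 8.49 units by a second that was not well above background. Both values of that second Fanci probe were substituted by the software, as for Mgmt.

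The deaminases convert cytosine to uracil, the lesion that Ung removes. Apobec1, known for editing the apolipoprotein B transcript, gave 660 and 655 units, or 1.08 ± 0.08 (SD, n = 2). Apobec3, which restricts retroviruses, had 2 detected probes. The probe at base 1706 gave 2021 and 2058 units, or 2.71 ± 0.10 (SD, n = 2), and the probe at base 226, at chr15:79725905-79725964 on mm9, plus strand, gave 66.9 and 65.3 units. Its reading on replicate 2 was below its brightest negative control. This probe is shown, with nothing marked, because it carries the lower Apobec3 reading.
Apobec3 probe at base 226: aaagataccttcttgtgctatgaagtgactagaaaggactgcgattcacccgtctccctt

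**Figure D3:**
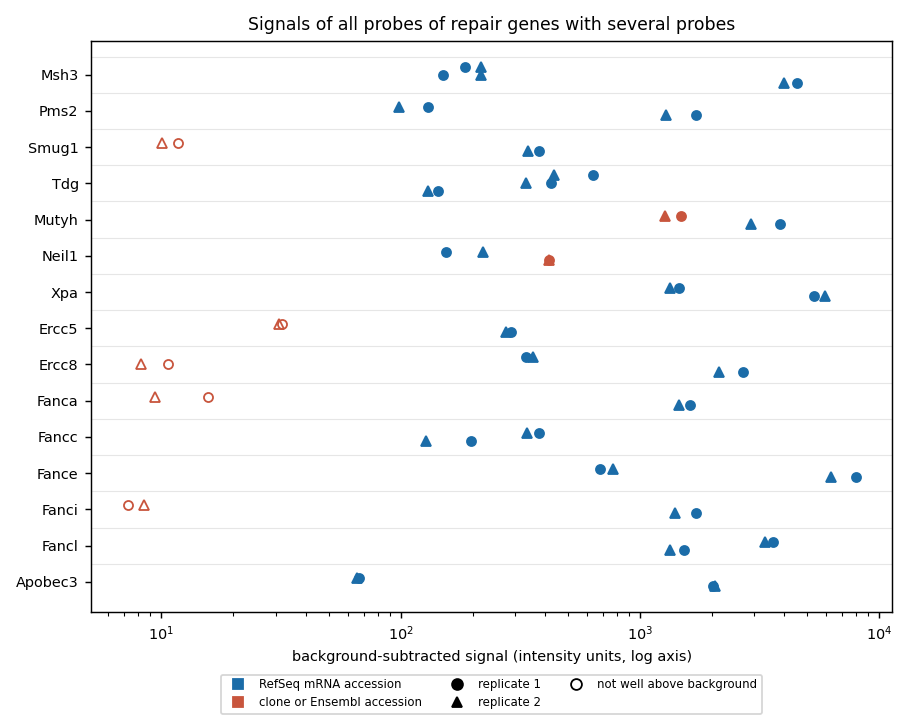
Background-subtracted signal in intensity units, on a log axis, of every probe of the 15 repair genes with several probes. Circles are replicate 1 and triangles replicate 2, open symbols were not well above background, and colour gives the kind of accession the probe was designed on. The open symbols belong to Smug1, Ercc5, Ercc8, Fanca and Fanci, and all are on clone or Ensembl accessions.

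Probes of 1 gene disagreed on detection in 5 of the 15 repair genes with several probes, against 22.6% of named genes with several. All 5 undetected probes were designed on cDNA clones or Ensembl transcripts. Of the repair probes on RefSeq mRNA accessions, 55 of 56 were detected, or 98.2%, with Mgmt the exception, and of those on other accessions 2 of 7 were, or 28.6%. Over all probes named for protein-coding genes the shares were 53.5% of 23470 for RefSeq and 38.6% of 2150 for other accessions. All bases of the undetected Smug1 probe also occur in the RefSeq promoter window of Smug1, before the start site. That probe therefore lies outside a transcript that begins at this start site. Whether the undetected probes match transcripts that these cells make was not tested.

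The arrays were about as close for the repair genes as for detected genes in general. None of the 44 detected genes differed by 2-fold or more, against 0.783% of detected named genes, a share too small to set 44 genes apart. The differences, replicate 2 minus replicate 1, ran from -0.45 for Neil2 to 0.48 for Apex2. The difference exceeded 2 errors of the software's own error model for 3 of 44, or 6.82%, against 10.6% of detected named genes. Those 3 were the glycosylases Ung at -0.43 and Tdg at -0.42, and Apex2 at 0.48. The error model covers the spot measurement only, and the Ung value comes from the probe with the g and t repeat. For Tdg the other probes differed by less, at -0.23 and -0.02.

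Of the 44 detected repair genes, 16 were higher on replicate 2 and 28 on replicate 1, where 43.8% of detected named genes were higher on replicate 2. The median difference was -0.06 over the repair genes and -0.03 over all detected named genes, and the median absolute difference was 0.17 and 0.16. By pathway the median was -0.18 for mismatch repair, -0.30 for the glycosylases, 0.05 for the later base excision genes, -0.06 for nucleotide excision repair, -0.03 for the Fanconi genes and 0.13 for the deaminases. The glycosylases were the group farthest from the array's median, with 8 of 10 higher on replicate 1, the exceptions being Nthl1 at 0.08 and Neil1 at 0.11. Their median ran from -0.53 to -0.25 over the scalings, the background correction and the probe averaging tried, and the medians of the later base excision, Fanconi and deaminase genes took either sign. Scaling by the median of all probes moved the median of all detected genes to -0.26, so these differences are read relative to it. Replicates of 1 group carry no condition, and what lies behind the glycosylase difference was not tested.

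**Figure D4:**
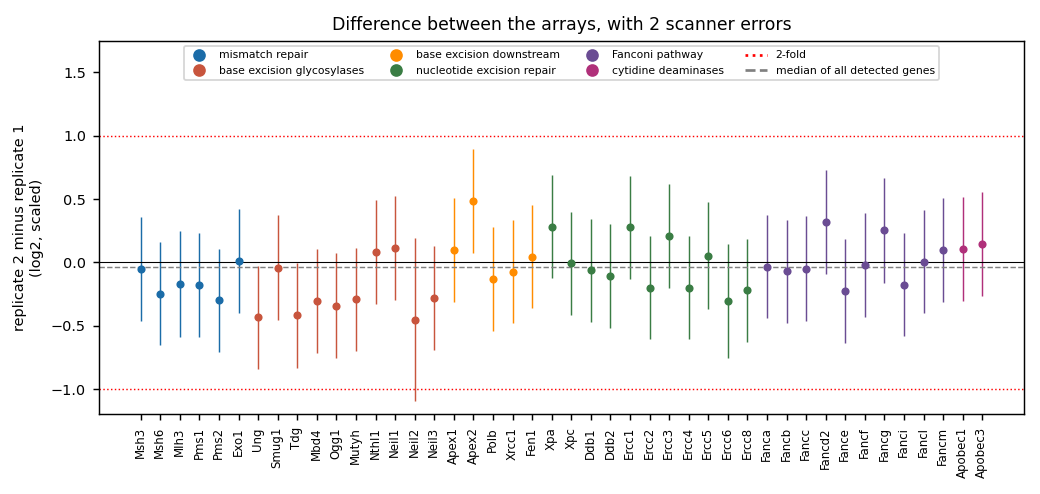
Difference in scaled log2 signal, replicate 2 minus replicate 1, for each of the 44 detected repair genes, coloured by pathway, with bars of 2 errors from the extraction software's error model. Dotted lines mark 2-fold and the dashed line the median of all detected named genes. All points lie within 2-fold, and only the bars of Ung, Tdg and Apex2 do not reach 0.

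Other probes of a gene did not always repeat its difference. In the 11 repair genes with at least 2 detected probes, the differences of 1 gene's probes were 0.02 to 0.70 apart, with a median of 0.40. In 5 of them, Msh3, Xpa, Ercc8, Fance and Fancl, the probes took opposite signs. Some of these signs are not secure. For Msh3, Xpa and Fancl a probe lay close to 0, at -0.05, -0.007 and 0.005, each with a software error of 0.20. The Ercc8 differences of 0.21 and -0.22 had errors of 0.21 and 0.20. The Msh3 probes differed by 0.34, 0.65 and -0.05, with the largest at base 2571, and the Fance probes by 0.30 and -0.23. Over single probes, 6 of the 57 detected repair probes, exceeded 2 errors, against 14.2% of all 22321 detected probes, and none of the 57 reached 2-fold, against 257 of the 22321.

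RefSeq promoter windows of 300 bases were matched to 37 of the 45 genes, giving 42 windows. The number of CpG dinucleotides had a median of 20.5 over these windows, with a range of 2 to 37, against 7 over all 32851 windows. Over the windows of all detected named genes the median was 20, and over those of named genes not detected on both arrays it was 5. The repair windows thus had a median close to that of detected genes in general. The medians over windows were 23.5 for mismatch repair, 21 for the glycosylases, 14 for the later base excision genes, 22 for nucleotide excision repair, 19 for the Fanconi genes and 9 for the deaminases. Some genes count more than once: the 6 mismatch windows come from 5 genes, with largely overlapping windows of Mlh3. The 4 later base excision windows come from 3 genes. The Mgmt window printed above, at 20, lay within the range of the detected genes.

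**Figure D5:**
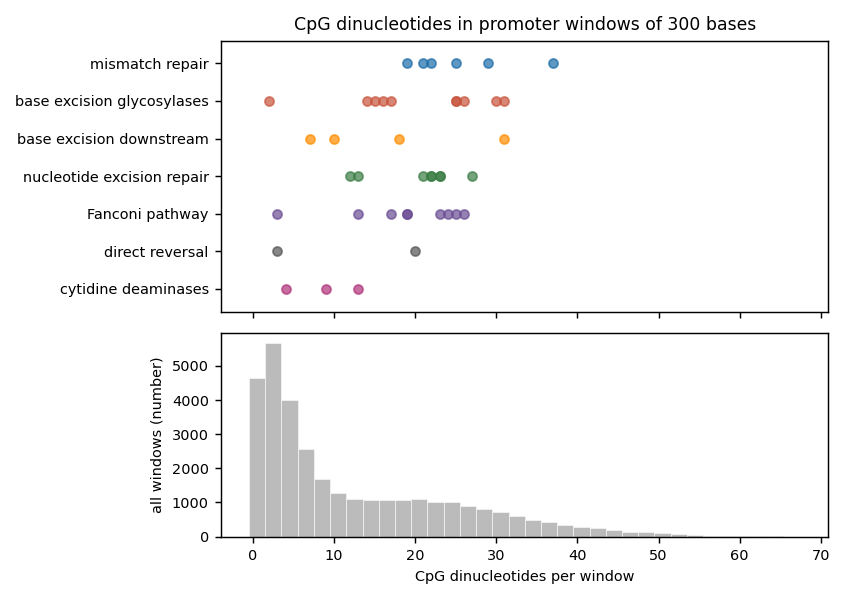
CpG dinucleotides per promoter window of 300 bases, for the 42 windows of repair genes by pathway (upper panel, 1 point per window) and for all 32851 windows (lower panel, number of windows per bin). The mismatch repair windows lie between 19 and 37, and the Mgmt windows at 3 and 20.

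Many genes of DNA synthesis carry sites for E2F factors, which act at the onset of replication. The motifs TTTCCCGC, TTTCGCGC, TTTGCCGC and TTTGGCGC were searched on both strands, where matches on opposite strands can overlap. A match lay in the windows of 4 of 37 repair genes, or 10.8%, namely Msh3, Msh6, Nthl1 and Fancg, against 2.60% of all 27025 genes with a window and 4.87% of the detected named genes. The Msh3 and Msh6 windows are printed, with the matches in capitals, because both mismatch recognition partners hold one. The Msh3 window is chr13:92354954-92355253, minus strand, and the Msh6 window chr17:87974800-87975099, plus strand, both on GRCm38.p6.
Msh3 promoter: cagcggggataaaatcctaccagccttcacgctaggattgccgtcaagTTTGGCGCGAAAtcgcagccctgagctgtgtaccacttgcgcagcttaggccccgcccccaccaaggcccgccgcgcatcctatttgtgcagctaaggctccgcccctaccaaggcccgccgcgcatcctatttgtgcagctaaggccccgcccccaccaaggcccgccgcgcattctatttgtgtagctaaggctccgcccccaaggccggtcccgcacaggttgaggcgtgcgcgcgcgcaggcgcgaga
Msh6 promoter: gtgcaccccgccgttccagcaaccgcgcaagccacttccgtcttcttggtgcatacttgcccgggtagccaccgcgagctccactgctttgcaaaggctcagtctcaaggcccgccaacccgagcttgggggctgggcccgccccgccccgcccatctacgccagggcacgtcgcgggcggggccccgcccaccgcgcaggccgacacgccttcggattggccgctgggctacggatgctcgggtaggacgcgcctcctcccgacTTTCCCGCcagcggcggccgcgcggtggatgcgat
The capitals in Msh3 are 2 overlapping matches, and those in Msh6 are a single match after the start site. A match is a run of letters, and binding was not measured.

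Genes that work with these pathways were detected nearly as fully. Of 65 related repair genes, 59 were detected, or 90.8%, against 51.7% of all named genes. None differed by 2-fold between the arrays, against 0.783% of detected named genes, a share too small to set a list of this size apart. Among replication and mismatch partners 15 of 16 were detected, all but Msh4, a meiotic MutS relative. All 17 further nucleotide excision genes were detected. Of the crosslink genes 17 of 18 were, without the nuclease Fan1, and of the base excision genes 8 of 10, without the polymerase Poll and with Parp3 detected on 1 array only. The oxidative demethylases Alkbh2 and Alkbh3, which reverse alkylation of other bases than Mgmt, were detected, and the deaminase relatives Apobec2 and Apobec4 were not.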

How the data were processed

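Total RNA of 2 P5424 samples, labelled as replicates 1 and 2, was measured on 1-colour arrays. The authors' intensity values came from Agilent Feature Extraction 10.5.1.1, per the submitters' processing notes, and were already background-subtracted per the file headers. The authors also deposited log2 values of these spots without stating how they were scaled or centred. Their slope against the scanner values was 0.997 and 1.01 on replicates 1 and 2, their column medians were both 5.18, and any added offset is unknown.

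Spots flagged by the software for uneven pixels or as population outliers were dropped (182 and 186, none of them of repair genes), and no spot was saturated. Log2 signals were scaled to the array's 75th percentile, and no test was run because there is 1 group. Well above background were 42.5% and 41.2% of probes on replicates 1 and 2. The number of arrays limits the precision. Probes were named through a RefSeq table of GRCm38.p6 by symbol (27730 probes), accession (2851) or synonym (639), leaving 24461 unnamed. Probe positions are on mm9 as the files give them; exon and UTR positions were not analysed here. Promoter sequences are RefSeq's.

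The members and lists were chosen with earlier results of these data known. All 45 members are named; every probe is given for undetected members, those with disagreeing probes and the first 2 detected of each group, and the rest by value or range. Detection rules, scalings, normexp background correction with limma 3.58.1 (offset 50, R 4.3.3), the deposited log2 table, probe averaging and leaving out a replicate were tried as alternatives. Scripts ran in Python 3.11.15 with pandas 2.3.3 and numpy 2.4.6 and were tested on simulated data.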

Additional observations from a re-analysis of the deposited data

How the results depend on the processing

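Detection held under the rules tried: 44 repair genes were detected in all but 2 of them. Requiring every probe of a gene left 39, without Smug1, Ercc5, Ercc8, Fanca, Fanci and Mgmt, and requiring a signal above the brightest negative control spot left 43, without Neil2 and Mgmt. Leaving out either replicate left 44. The share of all named genes detected ran from 44.6% (every probe required) to 67.5% (signal positive and significant). Repair genes whose probes disagree fell to 2, against 5, when a positive and significant signal was enough. The median difference of the repair genes was -0.28 when arrays were scaled by the median of all probes, against -0.06, because that scaling shifts every gene alike, and no setting put a repair gene 2-fold apart. Among all detected genes, 34 were 2-fold apart after normexp, against 90, and the cause was not tested. Levels moved by -3.51 with the percentile over detected probes and by up to 3.99 with median scaling, as a change of zero point, by -0.47 to 0.92 with normexp, and by as much as -2.99 when the detected probes of a gene were averaged. The count above the 75th percentile, with alternatives chosen after seeing the data, was 41 under each of them except probe averaging, which gave 38. The percentile over detected probes and median scaling were not among these alternatives, because their zero point is not the 75th percentile over all probes. No paired analysis was possible because there is 1 group. Signals near background, such as those of Neil2 and the dimmer Pms2 and Apobec3 probes, are the least certain.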
